A study of Mus musculus with 2 samples.

Results

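Total RNA-seq of the newborn mouse bladder was read for the immediate early genes of the AP-1 and Egr systems, a group of 10 genes: Fos, Fosb, Fosl1, Fosl2, Jun, Junb, Jund, Atf3, Egr1 and Ier3. The members were listed by name, and each was found by its Ensembl identifier through mouse GENCODE M21 among the 43346 mouse genes of each deposited gene file, so that 10 of 10 were measured. The tissue was the whole bladder of 2 pups of the strain B6NCrl, a C57BL/6-derived inbred strain, at age 0 days after birth. Both pups came from 1 pregnant mouse, 10 ng of RNA longer than 200 nt was used per library, and 1 library was made from each bladder. The pups carried no treatment or altered allele that the labels name, and sex was not collected. They form 1 group, newborn bladder, with pup 1 as replicate 1 and pup 2 as replicate 2 (n = 2), so the data hold no contrast of conditions. The questions the design allows are at what level each gene was present and how far 2 littermates differed. The files held 43653931 expected counts for pup 1 and 32564563 for pup 2. Markers were read beside the tissue label: 6 of 6 urothelial, 6 of 6 smooth muscle, 5 of 5 fibroblast and 5 of 5 endothelial markers reached 1 TPM in both pups. So did 9 of 9 macrophage and 5 of 5 liver markers, so passing this threshold does not identify the tissue. The uroplakin Upk3a stood at 2051 TPM in pup 1 and 2029 TPM in pup 2.

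Immediate early genes are transcribed within minutes of a signal from pre-existing factors, without new protein synthesis, and their messages are short-lived. Fos and Jun proteins pair through leucine zippers into the transcription factor AP-1, which binds the site TGANTCA. Jun proteins can pair with each other, whereas Fos proteins need a partner such as a Jun protein. Mitogen-activated protein kinases drive the genes through serum response factor and its Elk cofactors, and stretch of the wall is a known inducer of Fos and Jun in bladder smooth muscle. Egr1 is a zinc finger factor induced through the same cascade, Atf3 is a stress-induced bZIP factor, and Ier3 is a small survival protein induced through NF-kappaB and other routes.

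The messages of the group were present in both pups at levels that spanned over 2 orders of magnitude. At 1 TPM (the TPM scale corrects for library size and transcript length) or more in both pups, 8 of 10 members were detected: Ier3, Junb, Jun, Fos, Jund, Egr1, Atf3 and Fosl2. Over all protein-coding genes of the files the same threshold was passed by 58.5% of 21474. The median over all 10 members, those not detected included, was 15.1 TPM as the mean of both pups. The detected protein-coding genes had a median of 14.3 TPM. That set leaves out genes under the threshold, so the medians are not like for like. Together the 10 messages summed to 332 TPM in pup 1 and 349 TPM in pup 2, which is 0.0332% and 0.0349% of all TPM. In bulk tissue a high level in few cells and a low level in many cannot be told apart, nor can fewer cells of a type and less RNA per cell.

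**Figure D1:**
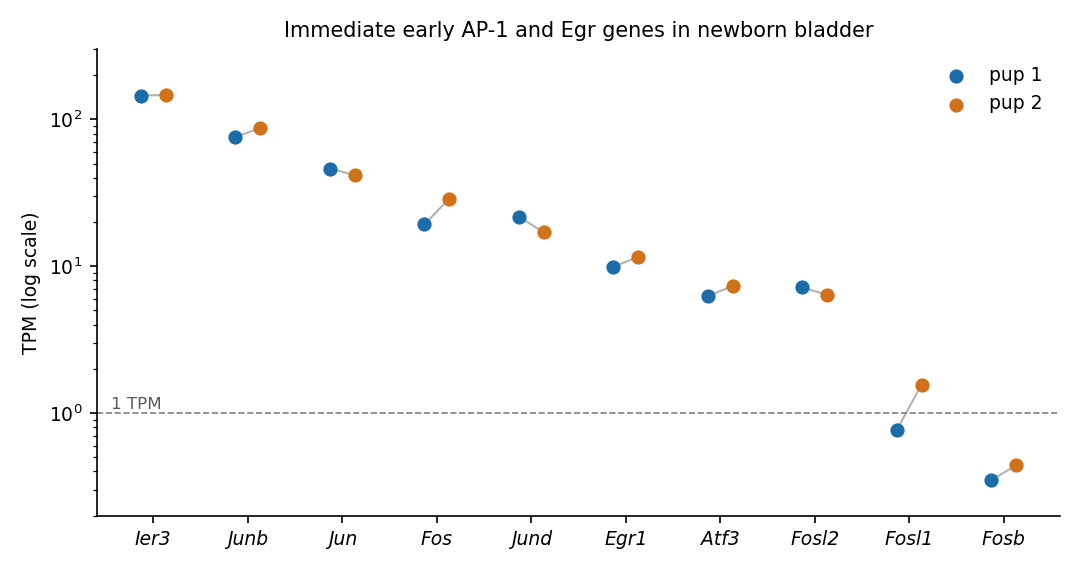
Level of each member in TPM (log scale), with 1 point for pup 1 and 1 for pup 2 joined by a line and the dashed line at 1 TPM. Members run by mean level, with Ier3 at 145 and 146 TPM and Fosb at 0.35 and 0.44 TPM at the ends. With 1 library per pup no error bar can be drawn.

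Ier3 was the highest member, at 145 TPM in pup 1 and 146 TPM in pup 2 (4482 and 3615 expected counts). Its mean of 146 ± 0.969 TPM (SD, n = 2) exceeded that of 92.9% of the detected protein-coding genes. The gene lies at chr17:35821684-35822923 on the plus strand (mm10, GENCODE M21) and has 2 exons. Junb, a Jun family protein known to counter Jun at some targets, followed at 75.7 TPM in pup 1 and 87.3 TPM in pup 2 (81.5 ± 8.20 TPM, SD, n = 2). Its leading transcript is a single exon at chr8:84976910-84978718 on the minus strand. Jun, the founding member of its family and the main transactivating partner of Fos, had 46.2 TPM in pup 1 and 41.7 TPM in pup 2 (44.0 ± 3.20 TPM, SD, n = 2), from 1 exon at chr4:95049034-95052222 on the minus strand. Fos, which cannot bind DNA without a partner, had 19.2 TPM in pup 1 and 28.8 TPM in pup 2 (24.0 ± 6.75 TPM, SD, n = 2). It lies at chr12:85473890-85477273 on the plus strand, with 4 exons in its leading transcript. The spread of Fos was the widest of these relative to its mean, and the ranges of Ier3, Junb, Jun and Fos did not overlap with each other.

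The proximal promoters of these 4 highest members are shown because they lead the group in level and hold different element sets. Each window is the 250 bases before the RefSeq start on GRCm38.p6 (the mm10 assembly), read 5′ to 3′ on the gene's strand, with capitals for matches to the motifs searched. The windows are chr17:35821463-35821712 (plus) for Ier3, chr8:84978749-84978998 (minus) for Junb, chr4:95052223-95052472 (minus) for Jun and chr12:85473640-85473889 (plus) for Fos.
Ier3: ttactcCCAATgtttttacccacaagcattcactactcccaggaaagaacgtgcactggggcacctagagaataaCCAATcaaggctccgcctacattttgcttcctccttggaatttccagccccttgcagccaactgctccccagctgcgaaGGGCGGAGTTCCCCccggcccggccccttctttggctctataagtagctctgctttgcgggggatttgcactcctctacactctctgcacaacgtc
Junb: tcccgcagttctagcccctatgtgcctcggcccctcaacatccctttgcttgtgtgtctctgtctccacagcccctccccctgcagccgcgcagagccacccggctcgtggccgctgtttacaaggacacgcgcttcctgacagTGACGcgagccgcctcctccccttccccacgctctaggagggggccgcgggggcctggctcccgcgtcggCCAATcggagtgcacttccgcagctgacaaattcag
Jun: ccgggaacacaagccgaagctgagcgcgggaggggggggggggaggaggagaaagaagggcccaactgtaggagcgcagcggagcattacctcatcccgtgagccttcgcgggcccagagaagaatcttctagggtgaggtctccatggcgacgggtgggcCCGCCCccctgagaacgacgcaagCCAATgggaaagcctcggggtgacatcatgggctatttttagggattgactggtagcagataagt
Fos: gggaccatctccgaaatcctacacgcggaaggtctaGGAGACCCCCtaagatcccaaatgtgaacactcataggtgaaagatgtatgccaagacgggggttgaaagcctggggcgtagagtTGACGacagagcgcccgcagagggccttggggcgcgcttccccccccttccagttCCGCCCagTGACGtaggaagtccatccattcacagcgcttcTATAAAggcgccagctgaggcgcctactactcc

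Of these 4 windows, that of Fos alone held the exact TATA box letters TATAAA (sense strand), at bases -33 to -28 from the start. So did 8.12% of 27025 RefSeq promoter windows of the same length. The Ier3 window holds the near match TATAAG, which this search did not count, so it is not shown to lack a TATA box. Fos also held TGACG, the core of the cyclic AMP response element, at -129 to -125 and at -66 to -62, a GC box (GGGCGG or its complement) at -74 to -69, and a match to the NF-kappaB site at -214 to -205. The Jun window had a CCAAT box at -65 to -61 and a GC box at -89 to -84, and the Junb window a CCAAT box at -36 to -32 and TGACG at -106 to -102. Ier3 had CCAAT at -244 to -240 and at -175 to -171, and a match to the NF-kappaB site at -92 to -83, which overlapped its GC box at -96 to -91. RefSeq windows were matched for 8 of the 10 members, the 4 above with Fosl2, Fosb, Jund and Atf3, and not for Egr1 and Fosl1. The bases right after the window opened a GENCODE M21 transcript for Jun and Fos only, so the other positions hold for the RefSeq start alone. The Jund window ended at chr8:70697738, before the M21 gene start at 70698949. The Fosl2 window (chr5:32136222-32136471) and the Atf3 window (chr1:191183334-191183583) lay inside their M21 genes, and the Ier3 and Fosb windows ran into theirs. The TGACG match of Atf3, at -7 to -3, falls inside its leading M21 transcript rather than before it. Over those 8 members, the GC box was found in 6 (32.9% of all windows), TGACG in 4 (17.9%), the NF-kappaB site in 4 (7.01%), CCAAT in 3 (34.5%) and the Egr site GCGNGGGCG in 2, Fosl2 and Fosb (4.65%). The AP-1 site TGANTCA (6.87% of all windows), the full element TGACGTCA (1.62%, which includes TGACG) and the CArG box of serum response factor (1.4%) had no match in these 8 windows. The Jun window holds TGACATCA, a near match to TGACGTCA that this search did not count. Bases further upstream than the windows were not searched, and Egr1 and Fosl1 had no window. The members are therefore not shown to lack AP-1, cyclic AMP or serum response factor elements. Motifs other than TATAAA were searched on both strands, and a match is a description of letters, not of binding.

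The next members formed a middle tier. Jund, the Jun protein known for the steadiest expression across cells, had 21.7 TPM in pup 1 and 17.0 TPM in pup 2 (19.4 ± 3.32 TPM, SD, n = 2). M21 gives it 1 exon of 1668 nt at chr8:70698949-70700616 on the plus strand, whereas the model counted is 2878 nt long. Egr1 had 9.89 TPM in pup 1 and 11.6 TPM in pup 2 (10.7 ± 1.195 TPM, SD, n = 2) and lies at chr18:34859823-34864984 on the plus strand. Atf3, at chr1:191170296-191218039 on the minus strand, had 6.27 TPM in pup 1 and 7.32 TPM in pup 2 (6.80 ± 0.743 TPM, SD, n = 2). Fosl2, the Fra-2 protein of the Fos family, had 7.17 TPM in pup 1 and 6.38 TPM in pup 2 (6.78 ± 0.559 TPM, SD, n = 2). In M21 it lies at chr5:32135801-32157842 on the plus strand. Among neighbours, 2 pairs in the order of levels overlapped between pups: Fos with Jund, whose means were 1.24-fold apart, and Atf3 with Fosl2, whose means were 1.00-fold apart. The other neighbours were separated by 1.58-fold to 5.82-fold in their means with no overlap, though with 2 pups such a gap was not tested.

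A lower tier of 2 Fos family genes stood apart from the rest. Fosl1, which encodes Fra-1, had 0.77 TPM in pup 1 and 1.56 TPM in pup 2, from 37 and 60 expected counts. Fosb had 0.35 TPM in pup 1 and 0.44 TPM in pup 2, from 38 expected counts in each. Fosl1 therefore passed 1 TPM in pup 2 and not in pup 1, and Fosb passed in neither. Fosl1 lies at chr19:5447547-5455946 (plus) and Fosb at chr7:19302696-19310051 (minus). The Fosl1 value carries a further limit: 1163 of its exon bases are shared with Ccdc85b on the opposite strand, which had 69.4 TPM in pup 1 and 75.4 TPM in pup 2. Whether counting used strand is not given in the sources used here, so reads of the overlap cannot be told apart. The same holds for Jund, which shares 877 exon bases with the antisense gene Gm11175 (37.1 TPM in pup 1, 30.2 TPM in pup 2), and for Jun, which shares 232 with Junos (2.29 TPM in pup 1, 2.86 TPM in pup 2). The shared bases are those of M21 exons, whereas the Jund and Fosl1 models counted differ from M21 in length.

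Between littermates, most members differed by less than 1.5-fold. The ratio of pup 1 over pup 2 was taken from expected counts after TMM scaling (trimmed mean of M values, which corrects for depth and for a few dominant genes), in the 8 members that averaged 100 or more counts. These are the same 8 that passed 1 TPM in both pups. With 1 library per pup there is no residual degree of freedom, so no p-value was computed, and the 95% intervals given are exact Clopper-Pearson intervals of counting error only. The pups came from separate animals, but preparation and biology cannot be told apart between them.

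Among these 8 members Fos was the furthest apart. Its 1145 expected counts in pup 1 and 1350 in pup 2 gave a log2 ratio of -0.64 (interval -0.76 to -0.53), that is 1.56-fold higher in pup 2. The interval spans the 1.5-fold line, and on the TPM scale the log2 ratio of -0.58 lay just inside that line. The authors' credibility bounds on the Fos level were 18.2 to 21.1 TPM in pup 1 and 27.1 to 30.9 TPM in pup 2 and did not overlap. Fos was the 1 of 8 members past 1.5-fold, where 4.92% of 12733 tested genes were, and 4.05% of tested genes had a larger ratio in absolute size. Of these 8 members 0 were 2-fold apart, against 1.98% of tested genes. Fosl1, with fewer counts, was further apart and is described with Fosb after the others.

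**Figure D2:**
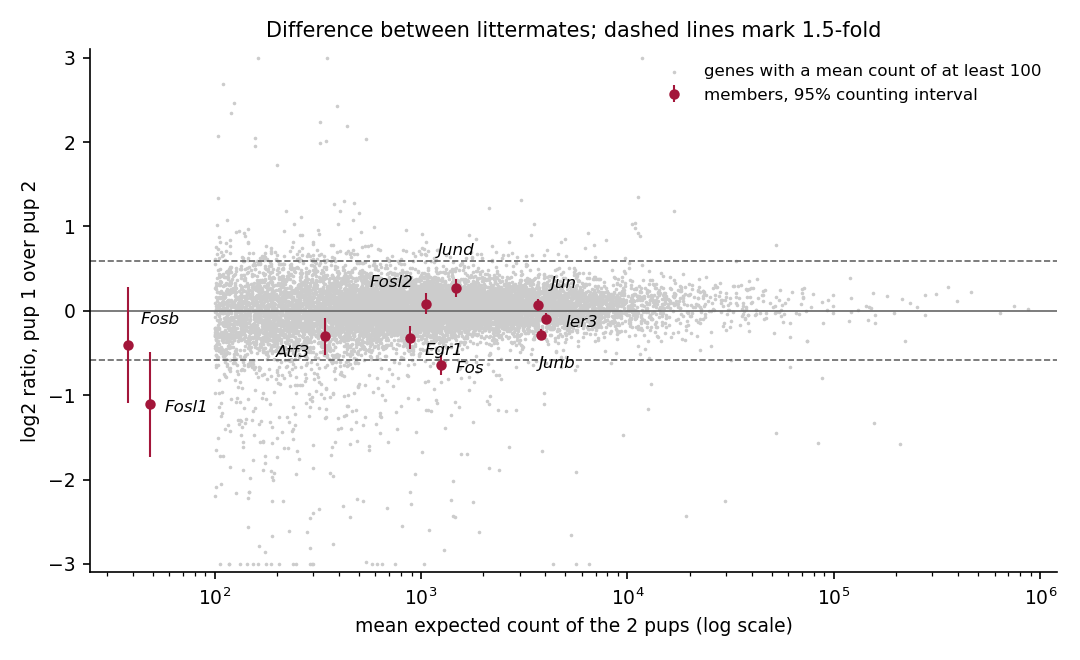
Log2 ratio of pup 1 over pup 2 against the mean expected count (log scale), with members in red with 95% counting intervals and all genes that averaged 100 or more counts in grey. Values past 3 in either direction are drawn at 3, and dashed lines mark 1.5-fold. Fos at -0.64 lies past the lower line, and Fosl1 and Fosb lie below the count minimum.

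The other members were closer. Egr1 had a log2 ratio of -0.32 (interval -0.46 to -0.18), Atf3 of -0.30 (-0.52 to -0.08) and Junb of -0.29 (-0.35 to -0.22), each lower in pup 1. Jund was higher in pup 1, at 0.27 (0.16 to 0.38). With Fos these made 5 of 8 members at least 1.2-fold apart, where 23.3% of tested genes were. Ier3 at -0.09 (-0.16 to -0.03), Jun at 0.07 (0.001 to 0.14) and Fosl2 at 0.09 (-0.04 to 0.21) were the nearest to equal. The interval left out equal levels in 7 of 8 members, all but Fosl2, and in 52.3% of tested genes. Pup 1 was the lower pup in 5 of 8 members (Fos, Egr1, Atf3, Junb and Ier3), against 45.2% of tested genes. The median ratio was -0.19 over the 8 members and 0.02 over the tested genes, whose quartiles were -0.12 and 0.16. Under the count minimum, Fosl1 gave -1.10 (-1.73 to -0.49) and Fosb -0.40 (-1.09 to 0.28).

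Markers of macrophages, neutrophils, erythroid cells and liver also differed between the pups, mostly by larger ratios. Macrophage markers were lower in pup 1 in 9 of 9 cases, with sums of 526 TPM in pup 1 and 1788 TPM in pup 2 and a median log2 ratio of -1.18. The 6 neutrophil markers summed to 37.6 TPM in pup 1 and 397 TPM in pup 2, and 3 of the 3 with enough counts were lower in pup 1. Erythroid markers were lower in pup 1 in 5 of 5 cases, at 21719 TPM in pup 1 and 59101 TPM in pup 2 in sum, and liver markers higher in 5 of 5, at 70.2 TPM in pup 1 and 18.7 TPM in pup 2. No marker of these 4 lists was at 0 in either pup. Fos, Junb, Egr1, Atf3 and Ier3 were lower in the same pup as the macrophage, erythroid and most neutrophil markers, whereas Jun, Jund and Fosl2 were higher in it. The part of these cells in the difference was not tested.

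**Figure D3:**
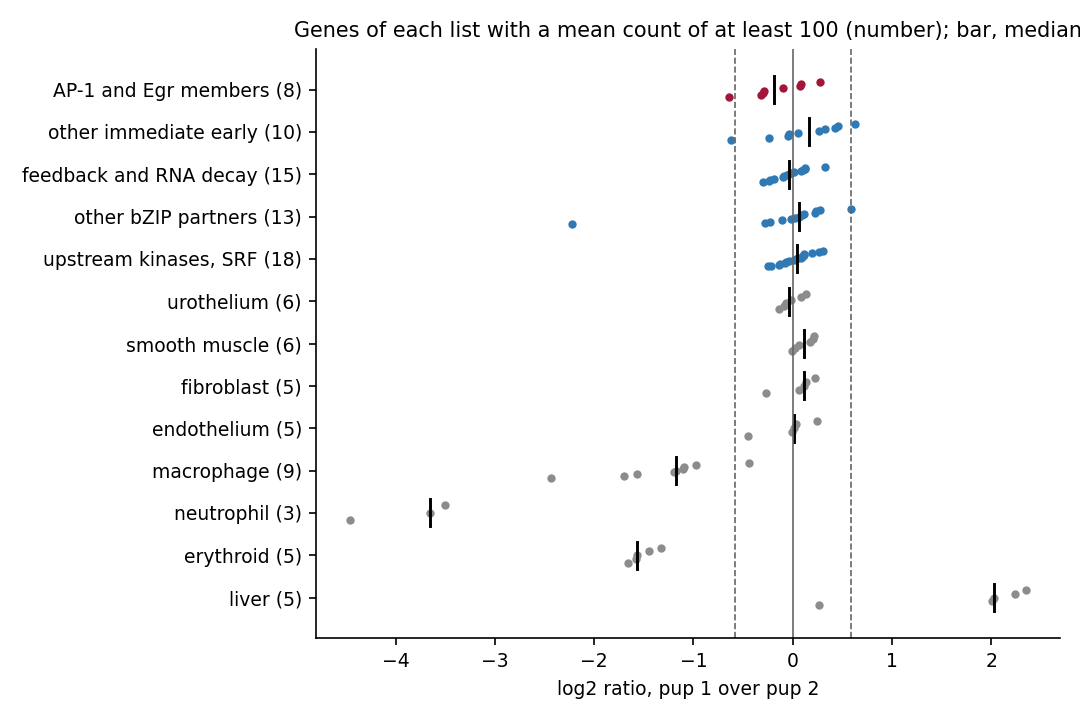
Log2 ratio of pup 1 over pup 2 for each gene that averaged 100 or more counts, by list (number of genes in parentheses), with a bar at the list's median and dashed lines at 1.5-fold. The members are in red, related lists in blue and cell type markers in grey. The members' median is -0.19, where all tested genes have a median of 0.02 and a lower quartile of -0.12. The macrophage median is -1.18 and the liver median 2.03.

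Set against each other as subunits of AP-1, Jun family messages outnumbered Fos family messages in both pups. Jun, Junb and Jund summed to 144 TPM in pup 1 and 146 TPM in pup 2. Fos, Fosb, Fosl1 and Fosl2 summed to 27.5 TPM in pup 1 and 37.1 TPM in pup 2. The Jun sum was thus 5.22 times the Fos sum in pup 1 and 3.93 times in pup 2, and the Fos family took 16.1% of the joint sum in pup 1 and 20.3% in pup 2. By TPM, Junb held the largest share of the Jun family, at 52.7% in pup 1 and 59.8% in pup 2, followed by Jun at 32.2% and 28.6% and Jund at 15.1% and 11.7%. In the Fos family, Fos took 69.9% in pup 1 and 77.4% in pup 2, and Fosl2 took 26.1% and 17.2%. Fosl1 took 2.80% and 4.20% and Fosb 1.27% and 1.19%. By expected counts, which grow with transcript length, Fosl2 held 50.3% of the Fos family in pup 1 and 37.8% in pup 2, and Fos 46.6% and 58.0%, so the leading Fos family member in pup 1 depends on the scale. The same holds for the Jun family. By expected counts Jun held 42.6% of it in pup 1 and 39.3% in pup 2, and Junb 39.3% and 46.3%. These are shares of RNA, and protein was not measured.

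**Figure D4:**
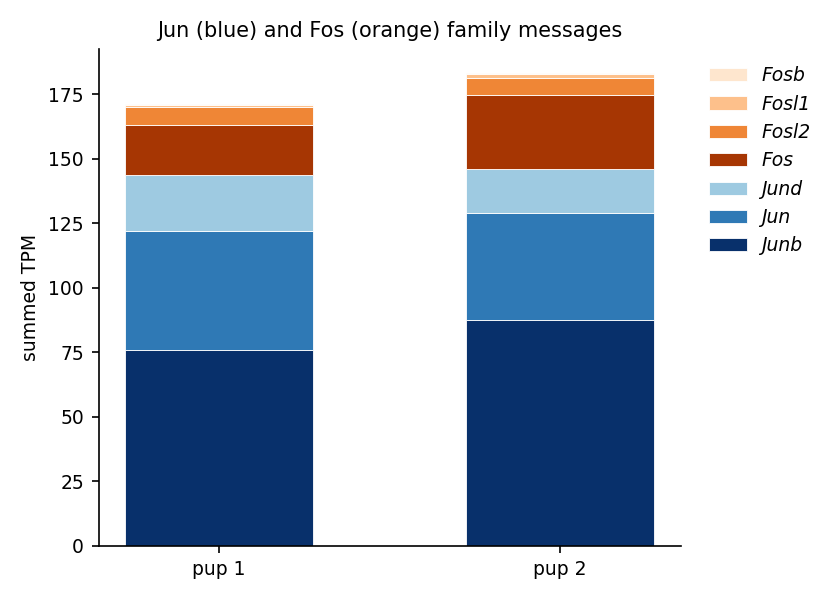
Summed TPM of the Jun family (blues) and Fos family (oranges) in pup 1 and pup 2, stacked by gene. The Jun sums are close, at 144 and 146 TPM, and the Fos sums are 27.5 and 37.1 TPM.

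Transcript estimates placed most members on 1 message. The files model a single transcript for 7 members, so a division could be given for Fos, Atf3 and Egr1. Fos-201, the protein-coding transcript, held 98.6% of Fos in pup 1 and 96.5% in pup 2, and Fos-203, a processed transcript, 1.39% and 1.98%. Egr1-202 held 90.6% of Egr1 in pup 1 and 88.6% in pup 2, and Egr1-201, the other protein-coding model, held the rest at 9.42% and 11.4%. Atf3-201 held 100% of Atf3 in both pups, although by the authors' posterior estimate it held 87.9% in pup 1 and 91.6% in pup 2. Fosb has 7 transcripts in GENCODE M21 and 1 in the files' older annotation, so the truncated deltaFosB message, known from brain, cannot be read from these values. The Jund model in the files is 2878 nt long, against 1668 nt in M21, and a TPM value divides by that length.

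The 3′ UTRs of the members were examined for AU-rich elements, which recruit decay factors such as Zfp36 and are known for the short life of immediate early messages. Every one of the 10 members held the pentamer ATTTA, written as DNA, in the 3′ UTR of its leading transcript, against 64.8% of 12449 detected genes. The median density was 2.20 per kb over the members and 1.2 per kb over the detected genes. Ier3 was densest, with 5 pentamers in 613 nt (8.16 per kb), a density exceeded by 1.83% of detected genes. Fos followed with 4 in 815 nt (4.91 per kb), Junb with 2 in 485 nt (4.12 per kb) and Jun with 4 in 1233 nt (3.24 per kb). Atf3 had 2.53 per kb, Jund 1.88, Fosl2 1.72, Egr1 1.68, Fosl1 1.57 and Fosb 0.466 per kb. Fosl2 held the most pentamers, 8, in the longest of these UTRs at 4653 nt. The extended element TTATTTATT was found in Fos and Fosl2, 2 of 10 members, against 6.78% of detected genes.

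A window of 30 bases around the tightest pentamers is shown for the densest members and for both genes with the extended element, on the gene's strand, with the pentamers in capitals. The windows are chr17:35822484-35822513 (plus) for Ier3, chr12:85477100-85477129 (plus) for Fos, chr8:84977127-84977156 (minus) for Junb, chr4:95049207-95049236 (minus) for Jun and chr5:32156864-32156893 (plus) for Fosl2, all on GRCm38.
Ier3 site: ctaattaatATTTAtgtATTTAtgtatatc
Fos site: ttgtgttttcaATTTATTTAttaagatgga
Junb site: aatatatttgtgtATTTAacagggagggga
Jun site: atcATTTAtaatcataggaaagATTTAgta
Fosl2 site: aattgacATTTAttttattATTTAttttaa

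In the Fos window the pentamers run into each other, whereas in Ier3 and Fosl2 they stand apart and in Junb 1 stands alone. The densest members, Ier3, Fos, Junb and Jun, were also the 4 at the highest level in these bladders. That is a description of 4 genes, with no test. For the extended element the detected genes went the other way, with a median of 8.655 TPM with TTATTTATT and 15.07 TPM without it.

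**Figure D5:**
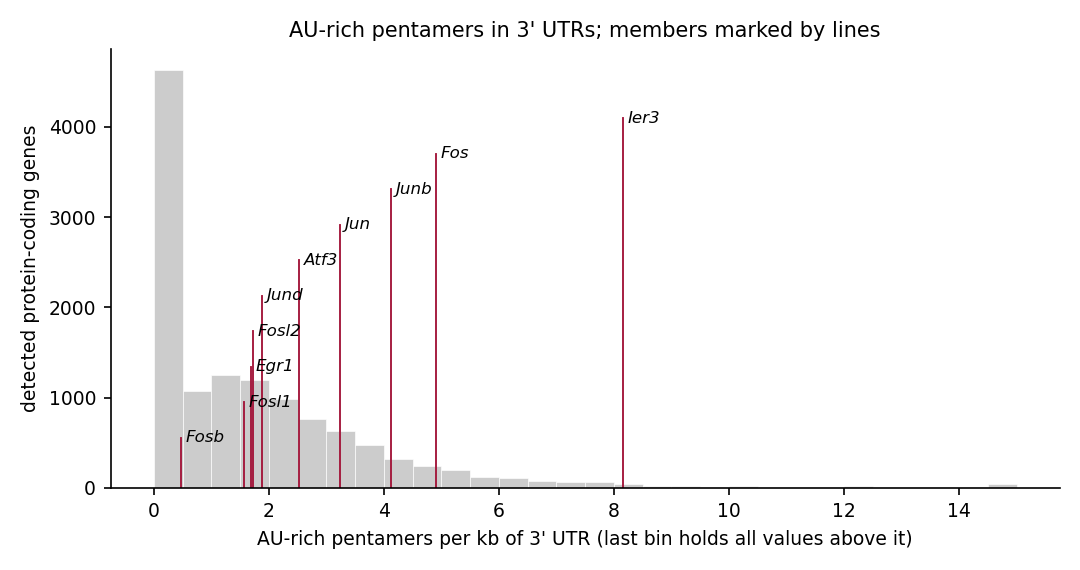
Number of detected protein-coding genes (grey bars) by AU-rich pentamers per kb of 3′ UTR, with red lines at the members, whose heights carry no value. Ier3 at 8.16 per kb lies in the upper tail, and Fosb at 0.466 per kb in the lowest bin.

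Other immediate early genes, taken as a list of 16 transcription factors and effectors, reached 1 TPM in both pups in 11 cases, and their median level was 5.06 TPM. Leading the list were the Krüppel-like factors Klf6 (67.3 TPM in pup 1, 53.0 in pup 2) and Klf10 (52.9 and 48.2 TPM) and the early response gene Ier2 (42.1 and 47.0 TPM). The Egr relatives Egr2 (0.50 and 0.45 TPM), Egr3 (0.05 and 0.10 TPM) and Egr4 (0.03 and 0.02 TPM) were below 1 TPM in both pups, and so was the neuronal factor Npas4 (0.46 and 0.55 TPM), so that Egr1 was the one Egr gene detected. Of the 10 that averaged 100 or more counts, 4 were lower and 6 higher in pup 1, with a median log2 ratio of 0.16. Past 1.5-fold were Klf2, a flow-responsive endothelial factor that is also found in leukocytes, at -0.62 (20.1 TPM in pup 1, 29.4 in pup 2), and Csrnp1 at 0.62 (6.15 and 3.77 TPM).

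Feedback and RNA decay genes were detected in 15 of 15 cases, with a median of 24.0 TPM. They include the phosphatases that switch off the kinases and the proteins that bind AU-rich elements. Zfp36l1 had 84.5 TPM in pup 1 and 84.2 TPM in pup 2, and Zfp36 (tristetraprolin) 61.4 and 60.4 TPM. Nfkbia, the inhibitor of NF-kappaB, had 49.0 TPM in pup 1 and 54.2 TPM in pup 2. Of these 15, 9 were lower and 6 higher in pup 1, none by 1.5-fold, with a median log2 ratio of -0.04.

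Other bZIP factors that can pair with AP-1 proteins were detected in 14 of 16 cases, with a median of 8.75 TPM. Atf4, the factor of the integrated stress response, was the highest at 130 TPM in pup 1 and 125 TPM in pup 2, above every Fos and Jun gene. The small Maf protein Mafk had 63.2 and 49.5 TPM and the cyclic AMP pathway factor Atf1 31.5 and 26.5 TPM, while Batf2 was below 1 TPM at 0.25 and 0.26 TPM. Of the 13 with enough counts, 5 were lower and 8 higher in pup 1, with a median log2 ratio of 0.06. The small Maf protein Maff was higher in pup 1 past 1.5-fold, at a log2 ratio of 0.59 (8.94 TPM in pup 1, 5.62 in pup 2).

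Kinases and serum response factors upstream of the members were detected in 18 of 19 cases, with a median of 15.6 TPM. Map2k2, a kinase of the mitogen-activated cascade, had 104 TPM in pup 1 and 102 TPM in pup 2, and its relative Map2k1 had 97.8 and 86.5 TPM. The neuronal Jun kinase Mapk10 was below 1 TPM at 0.27 and 0.21 TPM. Of 18 with enough counts, 7 were lower and 11 higher in pup 1, none by 1.5-fold, with a median log2 ratio of 0.04.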

How the data were processed

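The data are total RNA-seq of 2 newborn mouse bladders, each with its own library from RNA isolated by the mirVana method, per the labels. The quantification files were made on mm10 with GENCODE M4, as the listings beside them state. Aligner, estimator version and use of strand: not given in the sources used here. In the deposited expected counts, a read that fits several genes or transcripts was divided among them by the authors' estimator. The deposited TPM and FPKM values are scaled by effective length and depth by the authors. The deposited percent of a gene per transcript and the TPM credibility bounds, treated as a score, were used as they stand; their level is not stated in the headers.

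Genes were named through GENCODE M21, which matched 42462 of 43346 mouse genes; the others held 0.124% of counts. Levels are TPM. Ratios are of rounded expected counts with TMM factors (edgeR 4.0.16, R 4.3.3), for genes that averaged 100 or more counts. Total counts were 43653931 in pup 1 and 32564563 in pup 2, an effective ratio of 1.32 after TMM. Reads are not independent molecules, so intervals cover counting error only. Scaling was tested on simulated data. Promoters come from RefSeq (GRCm38.p6) and 3′ UTRs from M21. Alternatives covered thresholds, units, posterior estimates, DESeq2 1.42.0 size factors, total-count and spike-in scaling, pseudocount and count minimum. Python 3.11.15 was used.

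The members, gene lists and naming rule were chosen with earlier results of these data known. Named are all 10 members and, of 4 related lists, the 3 highest genes, up to 4 below 1 TPM in both pups, and every gene 1.5-fold or more apart. Of the genes this rule takes, 2 are not reported here. Upk3a was named as a tissue check, Ccdc85b, Gm11175 and Junos as overlapping genes, and Ngp, Mpo and Elane as neutrophil markers under the count minimum.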

Additional observations from a re-analysis of the deposited data

How the results depend on the processing

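Each member's ratio kept its sign under DESeq2 size factors, total-count, spike-in and TPM scaling, posterior counts and 1 added to TPM. Fos ranged from -0.66 to -0.56 and Ier3 from -0.11 to -0.01. DESeq2, total-count and spike-in scaling move every ratio by a constant (-0.0004, -0.0187 and 0.0036). These shifts are smaller than any member's ratio, so they could not change a sign and do not test it. The spike-in factor rests on 363 counts in pup 1 and 275 in pup 2. TPM scaling moved the median of all genes tested to 0.10, against 0.02 with TMM. The count of members 1.5-fold apart, 1 in the report, was 0 by TPM ratio and 0 with 1 added to TPM, which leaves Fos inside the line, and 2 with no count minimum or a mean count of 20, which admits Fosl1. At 10 TPM, 5 members were detected in place of 8, and in single pups 8 to 9. The median level of 15.1 TPM was 14.8 TPM by posterior mean TPM and 14.3 to 14.6 TPM in single pups. The Fos family share of 18.2% was 21.3% by expected counts and 16.1% to 20.3% in single pups. The leading transcript's share was 93.1% for Fos and 89.7% for Atf3 by posterior estimate, and 100% for Fos among protein-coding transcripts, against 97.5% and 100% for Fos and Atf3 as reported. Levels moved beyond the pups' SD for 9 members in FPKM, 6 in TPM without mitochondrial, globin and short structural RNA genes and 1 by posterior mean TPM. Depth limits Fosl1 and Fosb, at 37 to 60 counts. No paired analysis was possible because the single group has 1 library per pup.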
